A study of Rattus norvegicus with 54 samples.

Results

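The 8 genes described here are the core of the Hedgehog pathway: the ligand gene Shh, the receptor gene Ptch1, the ligand-binding inhibitor gene Hhip, the signal transducer gene Smo, the transcription factor genes Gli1, Gli2 and Gli3, and the inhibitor gene Sufu. They were chosen by name. Each was matched by 1 probe set of the authors' deposited table, so 8 of 27342 main probe sets are followed over all 54 arrays. The arrays held total RNA of Rattus norvegicus in 18 groups of 3. Neural progenitor cell (NPC) cultures were grown from the subventricular zone (SVZ), a germinal layer beside the forebrain ventricles, and from cervical, thoracic and caudal spinal cord. The donors were Dark Agouti rats that were either naive, meaning healthy, or had EAE, experimental autoimmune encephalomyelitis, an induced inflammatory disease of the central nervous system used as a model of multiple sclerosis. Undifferentiated cultures were harvested after passage 2 and differentiated cultures after 5 days of differentiation, which gives 16 culture groups. The remaining 2 groups were SVZ biopsies of EAE and naive rats, for which the labels give no strain. Age and sex are not labelled. Nor is it stated that the replicates of a group are different animals or cultures, so each p-value rests on the spread among these arrays alone, which may be technical.

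Hedgehog proteins are secreted signals. Without them, Patched receptors hold Smo inactive, and Sufu and a set of kinases keep Gli proteins in check, with Gli3 largely cut down to a repressor. Once ligand binds Patched, Smo gathers in the primary cilium and Gli proteins turn on their targets. Gli1, Ptch1 and Hhip are among those targets in many tissues, so transcripts of Ptch1 and Hhip are both readouts and brakes of the pathway. In the embryonic cord, Shh from the floor plate patterns ventral progenitors, including those that give rise to oligodendrocytes, and in the adult SVZ it maintains neural stem cells.

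Of the 8 genes, 6 had a promoter sequence in the RefSeq table of assembly GRCr8, each covering 250 bases before and 50 bases after 1 annotated start. The following 4 belong to the genes that varied most between regions, Ptch1 and Hhip with higher signals in cord than in SVZ cultures and Smo and Gli3 with lower ones. They are written 5′ to 3′ on the strand of the gene, and capitals mark the Gli consensus TGGGTGGTC.
Ptch1: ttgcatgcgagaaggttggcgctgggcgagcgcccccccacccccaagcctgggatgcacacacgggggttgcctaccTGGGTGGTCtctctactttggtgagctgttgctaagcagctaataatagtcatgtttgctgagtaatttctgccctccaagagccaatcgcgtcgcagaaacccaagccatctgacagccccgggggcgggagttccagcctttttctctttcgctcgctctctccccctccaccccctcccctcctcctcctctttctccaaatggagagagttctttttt
Hhip: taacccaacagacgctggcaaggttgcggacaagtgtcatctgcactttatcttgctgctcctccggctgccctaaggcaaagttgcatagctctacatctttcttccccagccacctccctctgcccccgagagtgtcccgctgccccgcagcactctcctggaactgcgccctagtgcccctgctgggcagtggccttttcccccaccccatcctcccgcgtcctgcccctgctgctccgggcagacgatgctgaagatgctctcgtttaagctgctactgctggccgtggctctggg
Smo: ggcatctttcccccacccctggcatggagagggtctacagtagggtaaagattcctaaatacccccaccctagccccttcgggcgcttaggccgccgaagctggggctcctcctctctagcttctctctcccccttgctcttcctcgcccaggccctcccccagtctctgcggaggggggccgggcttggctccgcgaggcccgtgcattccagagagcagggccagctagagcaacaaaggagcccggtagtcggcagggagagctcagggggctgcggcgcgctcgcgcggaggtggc
Gli3: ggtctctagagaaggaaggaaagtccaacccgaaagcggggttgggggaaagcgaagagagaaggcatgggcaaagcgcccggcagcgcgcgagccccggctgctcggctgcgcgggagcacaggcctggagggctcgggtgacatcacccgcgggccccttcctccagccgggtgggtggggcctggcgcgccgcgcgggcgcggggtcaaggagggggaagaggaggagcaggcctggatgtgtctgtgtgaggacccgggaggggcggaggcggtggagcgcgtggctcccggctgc
The Ptch1 window lies at chr17:1555321-1555620 on the plus strand, and the RefSeq gene record also extends upstream of it. Hhip is at chr19:44767788-44768087 on the plus strand, Smo at chr4:59310834-59311133 on the plus strand and Gli3 at chr17:54405149-54405448 on the minus strand. The motif was searched on both strands, as TGGGTGGTC and as GACCACCCA. It was found once in the Ptch1 window, beginning 172 bases before the start on the strand of the gene, and these letters did not occur in the windows of Hhip, Smo, Gli2, Gli3 and Sufu. Of all 33469 promoters in the table, 129 held it, or 0.385%. A match is a description of letters and says nothing of binding in these cells. In the Hhip window the bases after the annotated start begin with atg. That start may thus be where the coding sequence begins rather than where transcription does. The lack of a match in this window may therefore not describe the Hhip promoter. The windows of Gli2, Gli3 and Smo were rich in G and C, at 68.3%, 72% and 67%, against a median of 51.7% over all promoters.

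Signals are the authors' linear array intensities, and levels of different genes cannot be ranked against each other on such a scale. Over the 54 arrays the main probe sets had medians of 51.6 to 120 and the background probe sets medians of 19 to 36.1. Values near 50, the signal limit of the study's design text, are thus close to the background medians. The background probe sets spread widely, with 95th percentiles of 339 to 626 on these arrays. A signal above 50 is therefore not by itself proof of expression. In 5 naive culture groups at least 1 array correlated with its replicates at under 0.96, 11 arrays in all. In undifferentiated cervical, undifferentiated thoracic and differentiated thoracic naive cultures this held for every array. The least correlated array was replicate 3 in undifferentiated cervical, differentiated SVZ and differentiated thoracic naive cultures. It was replicate 2 in undifferentiated thoracic and replicate 1 in differentiated cervical naive cultures. These are called the 5 least correlated arrays below, although some arrays that were kept correlated less than some of them. Differentiated thoracic naive replicate 2 stayed in at 0.909, against 0.959 for differentiated cervical naive replicate 1. Values without the 5 arrays, a setting added after seeing the data, are given beside several of the results they change. Scores of marker lists, the mean log2(signal + 16) over a list's genes, differed widely between cultures. The oligodendrocyte score (6 genes) was 9.52 to 13.1 in the 36 cord arrays and 6.96 to 11.6 in the 12 SVZ culture arrays, and the neural progenitor score (6 genes) was 6.66 to 8.86 and 9.71 to 10.4. Of the 6 neural progenitor markers, 4 to 6 were called lower in cord than in SVZ cultures in the 4 combinations of stage and disease state, and none was called higher. Of all probe sets tested, 10.6% to 43.9% were called lower in these comparisons. The fibroblast and pericyte score (10 genes) ran from 5.42 to 11.9 in cord cultures. In bulk RNA, fewer cells of a type and less RNA per cell cannot be told apart. Of 4 floor plate markers, which include Shh itself, the mean score stayed between 5.57 and 6.83 on all arrays.

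**Figure D1:**
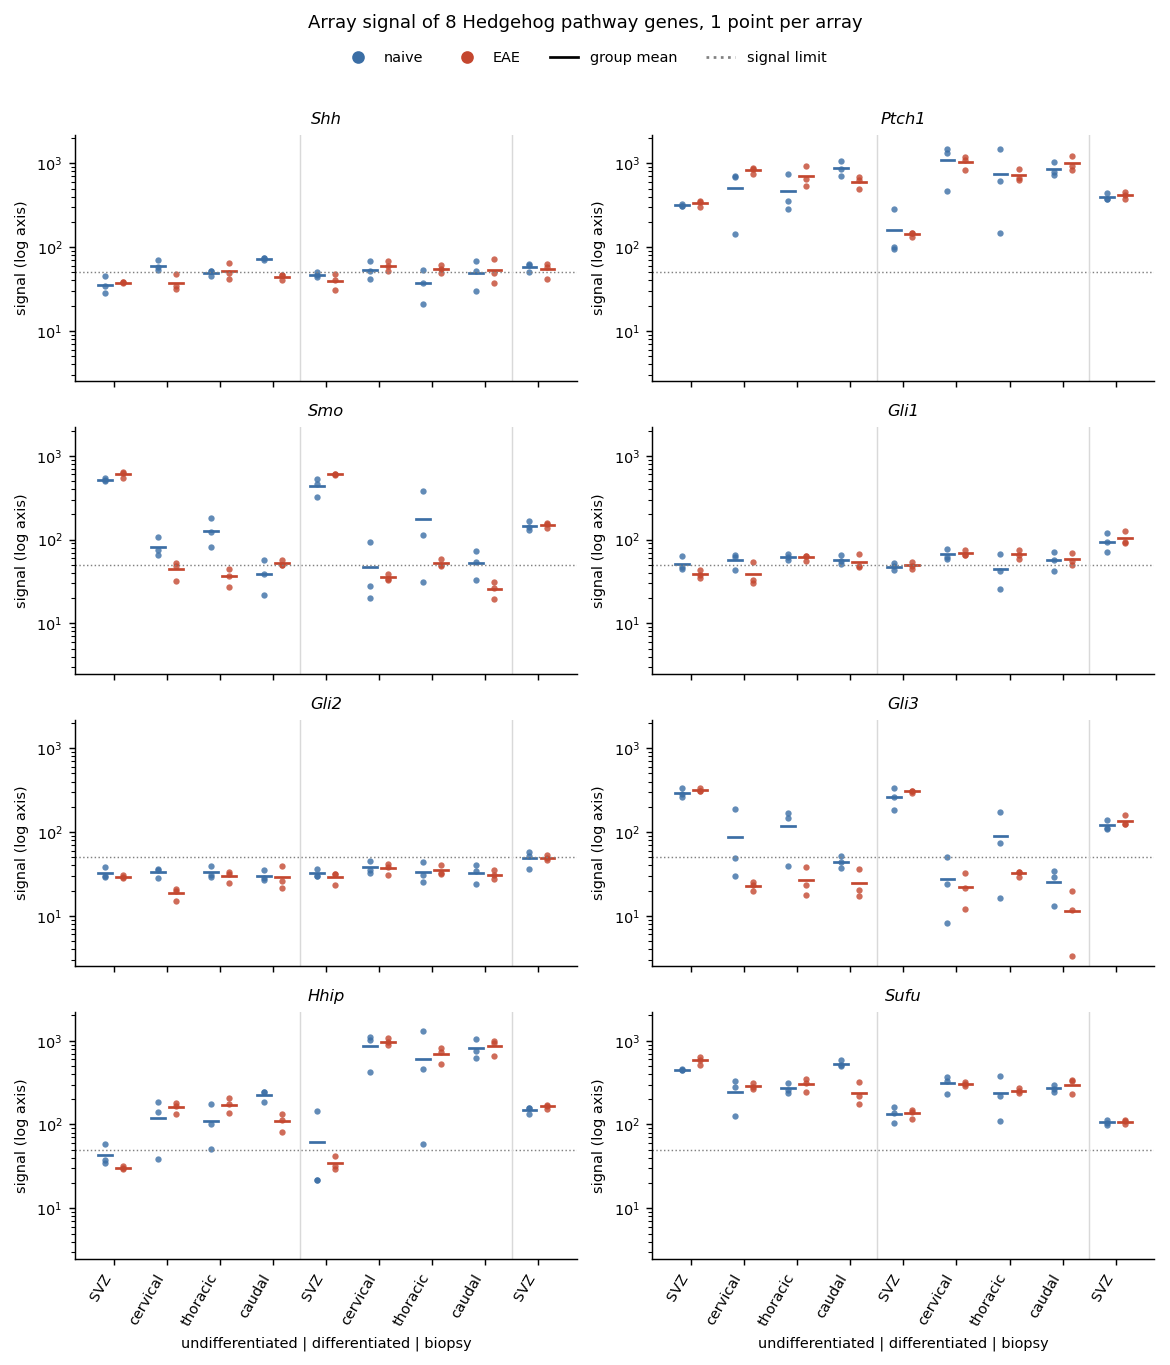
Signal of each of the 8 genes on every array, with 1 point per array on a log axis, a bar at each group mean, naive in blue and EAE in red, and a dotted line at a signal of 50. Ptch1 and Hhip lie highest in cord cultures, Smo and Gli3 lie highest in SVZ cultures, and Gli2 passed 50 on 3 of 54 arrays.

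The first comparison asked how cord and SVZ cultures differed. A probe set was tested where its signal passed 50 on at least 3 arrays of the fit, and a call needed an adjusted p of at most 0.05 (limma, Benjamini-Hochberg over all probe sets tested) and a fold of at least 1.2. Differences, here and for all genes that follow, are on the log2(signal + 16) scale, which understates those of dim genes, and errors are standard errors. In naive undifferentiated cultures 4 of the 8 genes were called, Shh and Hhip higher in cord and Smo and Gli3 lower, against 22.9% of all probe sets tested. In EAE undifferentiated cultures 5 were called, Ptch1 and Hhip higher and Smo, Gli3 and Sufu lower, against 47.7% of all. In naive differentiated cultures 5 were called, Ptch1, Hhip and Sufu higher and Smo and Gli3 lower, against 22.5%. In EAE differentiated cultures 7 were called, all but Gli2, and only Smo and Gli3 were lower, against 61.3%. These backgrounds are wide. Some genes could be tested only because they were high on 1 side. In EAE cultures Gli3 passed a signal of 50 on none of the 18 cord arrays and Hhip on none of the 6 SVZ arrays. Shh passed it on no SVZ array in naive undifferentiated or EAE differentiated cultures. The counts are therefore given as a description. The same SVZ arrays serve all 3 cord regions.

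**Figure D2:**
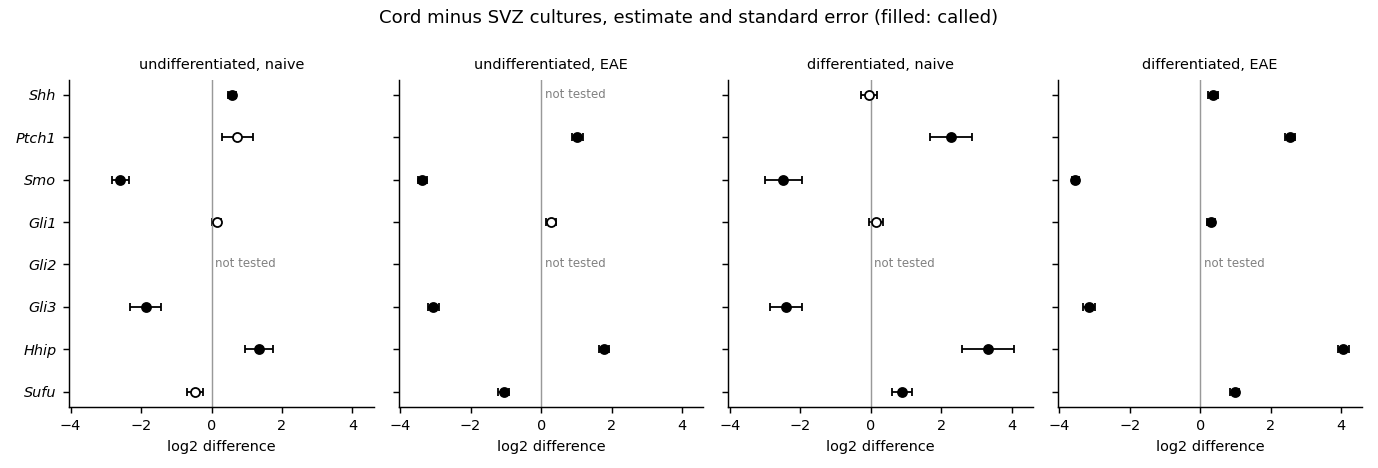
Difference between cord and SVZ cultures on the log2(signal + 16) scale for each gene, with its standard error, in the 4 combinations of stage and disease state. Filled points passed the call rule, open points did not, and genes under the signal limit are marked as not tested. In EAE cultures the points of Hhip and Gli3 are set against arrays under the limit of 50. They show the fitted values, for which only bounds are given in the text. The called Shh points are also set against SVZ arrays under the limit, so their size is uncertain. The Smo difference was between -2.48 and -3.55 in the 4 settings. Most EAE cord arrays were under the limit for Smo too, so its size there is uncertain.

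Shh, the ligand, stayed near the limit everywhere. Its signal was 28 to 50.1 over the 12 SVZ culture arrays with a median of 39.7, 21 to 74.5 over the 36 cord arrays with a median of 51.5, and 41.9 to 62.4 in the biopsies. Undifferentiated caudal naive cultures had the highest level, at 70.4, 74.5 and 73.2, and did not overlap with the next group in order. All other neighbours in the order of the 18 groups overlapped. In naive undifferentiated cultures Shh was higher in cord than in SVZ by 0.57 ± 0.11 (adjusted p = 0.00553), with no overlap between the 9 cord and the 3 SVZ arrays, and without replicate 1 of each group the adjusted p was 0.148. In EAE differentiated cultures the difference was 0.36 ± 0.14 (adjusted p = 0.0412) with overlapping arrays, and it was not called without replicate 1 (adjusted p = 0.103) or replicate 2 (adjusted p = 0.128). In both comparisons every SVZ array was under the limit of 50. Shh could be tested there only through the cord arrays, so the sizes of these differences are uncertain. The share of all probe sets without overlap was not counted.

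Ptch1, the receptor that restrains Smo, was measured well above the limit on all 54 arrays. In undifferentiated SVZ cultures its signal was 307, 312 and 330.2 in the naive and 357, 347 and 303 in the EAE arrays. Undifferentiated cervical cultures gave 699.6, 685 and 143 in naive and 752, 888 and 855 in EAE arrays. Cervical naive replicate 3 lay below the SVZ range, and the other 5 cervical arrays lay above it.
In thoracic cultures the naive arrays gave 354, 749 and 286 and the EAE arrays 536, 936 and 649. In caudal cultures the naive arrays gave 855, 1053 and 705 and the EAE arrays 499, 694 and 627. All 9 EAE cord arrays lay above all undifferentiated SVZ arrays, and thoracic naive replicate 3 was the one other cord array below them. The difference between cord and SVZ was 0.73 ± 0.44 in naive (adjusted p = 0.256) and 1.03 ± 0.15 in EAE undifferentiated cultures (adjusted p = 4.36e-05). The naive difference was called without the 5 least correlated arrays (0.83, adjusted p = 0.000498) and without replicate 3 of each group (1.13, adjusted p = 0.0301).

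After differentiation Ptch1 fell in SVZ cultures and stayed high in cord. The differentiated SVZ signals were 96, 100.4 and 284 in naive and 149, 146 and 132 in EAE arrays, all below the undifferentiated ones. Naive replicate 3 stood apart from the other SVZ arrays. Cervical cultures gave 466, 1480.3 and 1329 in naive and 823, 1199 and 1107 in EAE arrays, and thoracic cultures gave 621, 1491 and 146 in naive and 669, 639 and 854 in EAE arrays. Caudal cultures gave 721, 1049 and 780.5 in naive and 835, 942 and 1234 in EAE arrays. Thoracic naive replicate 3 was the lone cord array within the SVZ range. Cord exceeded SVZ by 2.29 ± 0.59 in naive (adjusted p = 0.0176) and by 2.53 ± 0.14 in EAE cultures (adjusted p = 7.46e-10). The naive difference was 3.21 without the 5 least correlated arrays, and it was not called without replicate 1 of each group (2.21, adjusted p = 0.189) or without replicate 2 (1.67, adjusted p = 0.2).

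Hhip, a membrane protein that binds Hedgehog ligands and takes them away from Patched, ranged from 21.6 to 1291 over the 54 arrays. In undifferentiated SVZ cultures the signal was 58.2, 34.7 and 37.2 in naive and 29.4, 31.9 and 30.4 in EAE arrays. Undifferentiated cervical cultures gave 183, 139.5 and 38.3 in naive and 168, 133 and 181 in EAE arrays. Apart from cervical naive replicate 3 these lie well above SVZ.
Thoracic cultures gave 102, 175 and 50.9 in naive and 174, 207 and 136 in EAE arrays, and caudal cultures gave 246, 246 and 185 in naive and 81.5, 135 and 113 in EAE arrays. The undifferentiated cord arrays thus ran from 38.3 to 246, and the lowest 2 were the naive arrays that were also low in Ptch1. Cord exceeded SVZ by 1.34 ± 0.39 in naive (adjusted p = 0.0333) and, with the EAE SVZ arrays set to the limit of 50 that none of them reached, by at least 1.27 in EAE undifferentiated cultures (adjusted p of the fit = 9.74e-08). The naive difference was not called without replicate 1 (adjusted p = 0.236) or replicate 2 (adjusted p = 0.23).

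Differentiated cord cultures held far more Hhip signal. Cervical cultures gave 422, 1119 and 1029.9 in naive and 897, 1068 and 957 in EAE arrays, and caudal cultures gave 616, 747 and 1060.1 in naive and 980.3, 662 and 927 in EAE arrays. Thoracic cultures gave 465, 1291 and 59.1 in naive and 724, 523 and 822 in EAE arrays. All differentiated cord arrays except thoracic naive replicate 3 exceeded every undifferentiated one. Differentiated SVZ cultures gave 21.9, 21.6 and 143 in naive and 29.4, 32.3 and 42.4 in EAE arrays, so only naive replicate 3 rose above the limit. Cord exceeded SVZ by 3.34 ± 0.74 in naive (adjusted p = 0.00797) and, bounded in the same way, by at least 3.67 in EAE differentiated cultures (adjusted p of the fit = 7.33e-12). In naive cultures the difference was 4.55 without the 5 least correlated arrays, and it was not called without replicate 1 (adjusted p = 0.165) or replicate 2 (adjusted p = 0.129).

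In cord cultures Hhip signals moved with the oligodendrocyte marker list, while SVZ cultures gave a single array that did so. In undifferentiated cord cultures the oligodendrocyte score was 9.52 to 12.3 with a median of 11.5, and in differentiated cord cultures it was 11.2 to 13.1 with a median of 12.9. All 6 of its genes were above a signal of 50 on each cord array, and all 6 were called higher in cord than in SVZ in each of the 4 settings. Of all probe sets tested, 22.5% to 61.3% were called there in either direction. The 2 lowest Hhip values among undifferentiated cord arrays, 38.3 and 50.9, were on the arrays with the lowest oligodendrocyte scores, 9.52 and 10.6. Differentiated thoracic naive replicate 3, with an Hhip signal of 59.1, had a score of 11.2 against 12.7 and 13.1 in its replicates. Differentiated SVZ naive replicate 3, with 143, had a score of 11.6 against 8.3 and 7.82 in its replicates. In EAE SVZ cultures the score was 6.96 to 7.95 before and 8.54 to 9.85 after differentiation, and Hhip stayed at 29.4 to 42.4. Hhip was not alone in this. Over the 36 cord arrays the Pearson correlation with the score was 0.94 for Hhip, 0.702 for Ptch1 and 0.419 for Sufu. It was -0.463 for Smo, -0.548 for Gli3 and 0.191 to 0.238 for Shh, Gli1 and Gli2. The part of these markers in the differences of Hhip and the other genes was not tested.

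**Figure D3:**
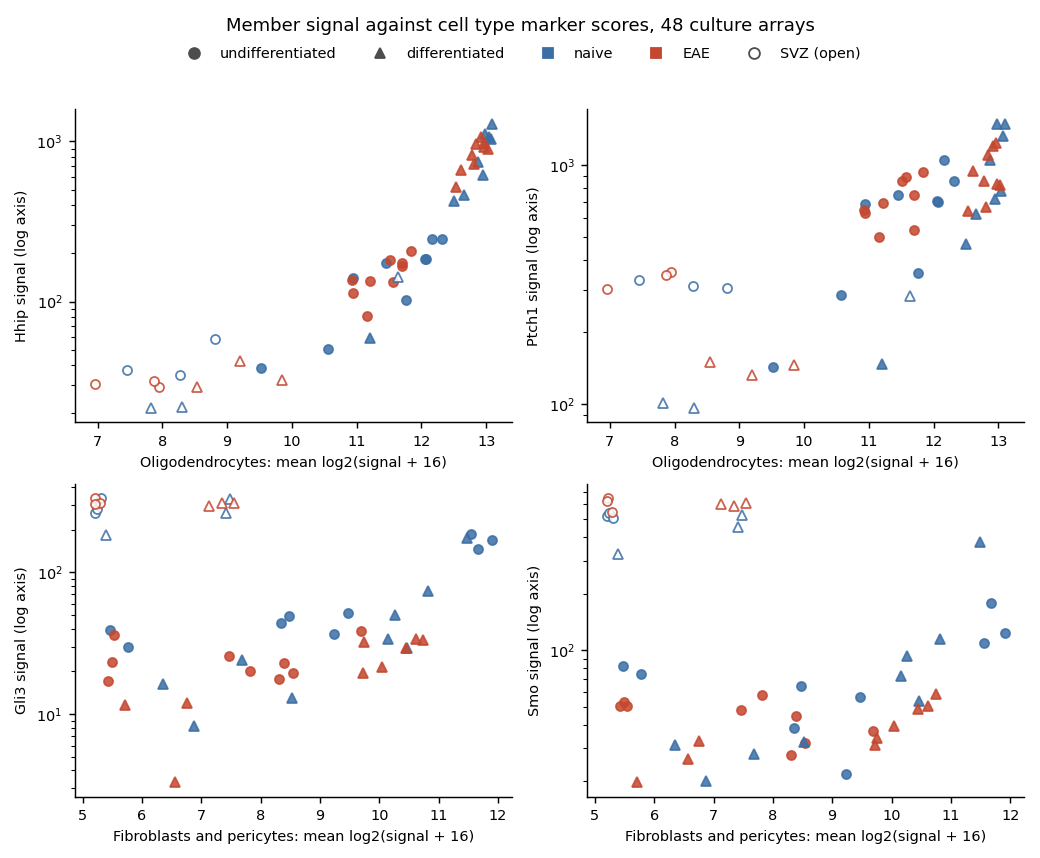
Signal of Hhip and Ptch1 against the oligodendrocyte marker score, and of Gli3 and Smo against the fibroblast and pericyte score, on the 48 culture arrays. Circles are undifferentiated and triangles differentiated cultures, open symbols are SVZ, blue is naive and red is EAE, and signals are on a log axis. Hhip is highest on the arrays with scores near 13, and among cord arrays the 4 with fibroblast scores from 11.5 to 11.9 have Gli3 signals of 146 to 186.

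Smo, the transducer that Patched restrains, had the reverse pattern. Undifferentiated SVZ cultures gave 518, 541 and 504 in naive and 648, 543 and 623 in EAE arrays, and differentiated SVZ cultures gave 523, 456 and 325 in naive and 605, 601 and 589.7 in EAE arrays. In undifferentiated cord cultures the naive arrays ran from 21.8 to 179 with a median of 74.5 and the EAE arrays from 27.4 to 57.4 with a median of 48.1. None of the 18 undifferentiated cord arrays reached the SVZ range.
In differentiated cord cultures the naive arrays ran from 19.9 to 376 with a median of 53.8 and the EAE arrays from 19.7 to 58.5 with a median of 33.8. The value of 376 was on thoracic naive replicate 3. It lay within the range of the naive differentiated SVZ arrays, so cord and SVZ overlapped there. The next highest cord value was 179, on an undifferentiated array. Over the 36 cord arrays Smo had a Pearson correlation of 0.5 with the fibroblast and pericyte score, whose part was not tested. Smo was lower in cord than in SVZ, with log2 differences in undifferentiated cultures of -2.59 ± 0.24 in naive (adjusted p = 4.89e-05) and -3.38 ± 0.13 in EAE arrays (adjusted p = 2.09e-11). After differentiation they were -2.48 ± 0.53 in naive (adjusted p = 0.00691) and -3.55 ± 0.1 in EAE cultures (adjusted p = 6.86e-13). The naive differentiated difference was not called without replicate 1 (adjusted p = 0.112) or replicate 2 (adjusted p = 0.0791). In EAE cord cultures Smo passed 50 on 4 of 9 undifferentiated and 2 of 9 differentiated arrays. The size of the EAE differences is therefore uncertain.

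Gli1, an activator that is itself a target of the pathway, was near the limit in all cultures. Its signal was 34.4 to 63 in the 12 SVZ culture arrays and 25.6 to 78.3 in the 36 cord arrays, and all neighbours in the order of the 18 groups overlapped. The biopsies were highest, with 70.7, 119 and 94.4 in naive and 90.9, 94.6 and 128 in EAE arrays. The only call between cord and SVZ was in EAE differentiated cultures, 0.3 ± 0.11 (adjusted p = 0.0227), with overlapping arrays, and it was lost on leaving out each of the 3 replicates in turn, at adjusted p of 0.149, 0.052 and 0.062, and when all 18 groups shared 1 fit (adjusted p = 0.0857). Gli2, the main activator at the start of signalling, ran from 15 to 57.8. It passed 50 on 3 biopsy arrays and on no culture array, so it was not tested in cultures.

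Gli3, which acts mostly as the repressor, shared the pattern of Smo. Undifferentiated SVZ cultures gave 261, 282 and 336 in naive and 336, 310.1 and 307 in EAE arrays, and differentiated ones gave 333, 264 and 185 in naive and 312, 293 and 311 in EAE arrays. Naive undifferentiated cord cultures ran from 30 to 186 with a median of 49.1, and the EAE ones from 17.2 to 38.5 with a median of 23.1. The 3 naive values above 52 were cervical replicate 3 at 186 and thoracic replicates 1 and 3 at 146 and 168.
Differentiated cord cultures ran from 8.27 to 175 in naive arrays with a median of 29.4, and from 3.3 to 33.7 in EAE arrays with a median of 21.5. Again thoracic naive replicate 3 was the highest. The log2 differences between cord and SVZ were -1.87 ± 0.45 (adjusted p = 0.0139) in naive undifferentiated and -2.4 ± 0.46 (adjusted p = 0.00382) in naive differentiated cultures, and -2.94 in the latter without the 5 least correlated arrays. All 18 EAE cord arrays were under the limit, so there only a bound can be given. With cord set to the limit of 50, Gli3 was higher in EAE SVZ cultures by at least 2.34 undifferentiated (adjusted p of the fit = 4.22e-10) and at least 2.28 differentiated (5.2e-10) on the log2(signal + 16) scale. Naive calls were lost without replicate 1 (adjusted p = 0.188 undifferentiated and 0.0975 differentiated), and in undifferentiated cultures also without replicate 2 (adjusted p = 0.0658). SVZ and cord arrays did not overlap in any of the 4 settings, and the share of all probe sets for which this holds was not counted. The 4 cord arrays with Gli3 above 140 had fibroblast and pericyte scores of 11.5 to 11.9, against 5.42 to 10.8 on the other 32, and the part of these markers in the Gli3 signals was not tested.

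Sufu, which holds Gli proteins in the cytoplasm, changed sides with differentiation. Undifferentiated SVZ cultures gave 448, 456 and 442 in naive and 596, 516 and 643 in EAE arrays, and differentiated SVZ cultures gave 136, 104 and 161 in naive and 143, 118 and 151 in EAE arrays. Undifferentiated cord cultures ran from 126 to 588 in naive arrays with a median of 314 and from 176 to 349.6 in EAE arrays with a median of 282. Differentiated cord cultures ran from 109.7 to 378 in naive arrays with a median of 266 and from 230.3 to 339 in EAE arrays with a median of 287. The cord medians were thus similar at both stages, but in caudal naive cultures Sufu went from 588, 508 and 500.5 to 243, 299 and 266 without overlap. Sufu was lower in cord than in SVZ in EAE undifferentiated cultures, with a log2 difference of -1.06 ± 0.15 (adjusted p = 5e-05), and in naive ones the difference was -0.47 ± 0.23 (adjusted p = 0.167), or -0.37 without the 5 least correlated arrays (adjusted p = 0.0113). It was higher in cord after differentiation, by 0.89 ± 0.29 in naive (adjusted p = 0.046) and 0.97 ± 0.12 in EAE cultures (adjusted p = 5.52e-06). The naive call was lost with log2(signal + 1) (adjusted p = 0.0507), with no signal filter (adjusted p = 0.0572), and without replicate 1 (adjusted p = 0.247) or replicate 2 (adjusted p = 0.354).

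The second comparison asked what changed over 5 days of differentiation. In SVZ cultures 2 of the 8 genes were called in each disease state, Ptch1 and Sufu, both lower, against 39.3% of all probe sets in naive and 54.8% in EAE cultures. Sufu changed by -1.66 ± 0.15 in naive (adjusted p = 0.000301) and by -1.97 ± 0.11 in EAE cultures (adjusted p = 1.82e-06). Ptch1 changed by -1.08 ± 0.36 (adjusted p = 0.0496) and -1.15 ± 0.09 (adjusted p = 1.2e-05). The naive Ptch1 call stood at the edge of the rule and was lost under 6 other settings and on leaving out any of 5 single arrays, while without differentiated SVZ naive replicate 3 the change was -1.54. Smo changed by -0.28 ± 0.17 in naive and -0.01 ± 0.09 in EAE cultures and Gli3 by -0.19 ± 0.21 and -0.05 ± 0.08, none of them called, with adjusted p of 0.234, 0.932, 0.497 and 0.569. Over the same step, 3 of 5 astrocyte markers rose in naive SVZ cultures, 3 rose and 2 fell in EAE ones, all 6 oligodendrocyte markers rose in EAE and none in naive ones, and 1 of 4 proliferation markers fell in each. Their part in the fall of Ptch1 and Sufu was not tested. When all 18 groups shared 1 fit, the fall of Ptch1 in EAE cultures was not called either (adjusted p = 0.0664).

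**Figure D4:**
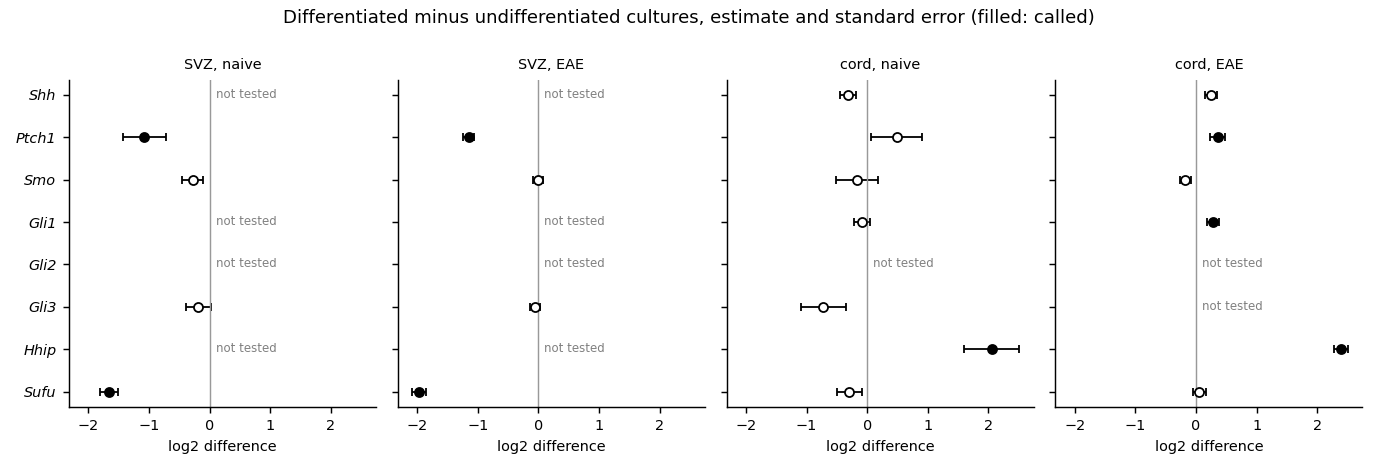
Change from undifferentiated to differentiated cultures on the log2(signal + 16) scale, with its standard error, in SVZ and over the mean of the 3 cord regions. Filled points passed the call rule. Hhip rose by 2.05 in naive and 2.4 in EAE cord cultures, and Sufu fell by 1.66 and 1.97 in SVZ cultures.

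Over the mean of the 3 cord regions, 1 of the 8 genes was called in naive cultures, against 26.9% of all probe sets, and 3 in EAE cultures, against 54.3%. Hhip rose by 2.05 ± 0.45 (adjusted p = 0.00518) in naive and by 2.4 ± 0.12 (adjusted p = 4.73e-12) in EAE cultures. Without the 5 least correlated arrays, Ptch1 (0.84, adjusted p = 0.00292) and Gli3 (-1.02, adjusted p = 0.00366) were called too in naive cultures. The naive rise of Hhip was not called without replicate 1 (2.34, adjusted p = 0.0694) or replicate 2 (1.88, adjusted p = 0.0706) of each group. In EAE cultures Ptch1 rose by 0.36 ± 0.12 (adjusted p = 0.0139) and Gli1 by 0.28 ± 0.09 (adjusted p = 0.0148), and without replicate 3 neither was called, with adjusted p of 0.218 and 0.243. Gli1 was not called without replicate 2 (adjusted p = 0.121), nor Ptch1 when all 18 groups shared 1 fit (adjusted p = 0.282). Sufu changed by 0.05 ± 0.11 in EAE cord cultures (adjusted p = 0.677) with signals as deposited. With scaling to the 75th percentile, which moved the median of all probe sets from -0.1 to 0.23, Sufu was called higher at 0.38 (adjusted p = 9.65e-05), and with quantile normalization, where that median was 0.09, at 0.35 (adjusted p = 0.00014). Along with the rise of Hhip, 5 of 6 oligodendrocyte markers rose in cord cultures of each disease state, and 7 of 10 fibroblast and pericyte markers rose in EAE and 1 in naive ones.

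The change itself differed between cord and SVZ. In EAE cultures 3 of the 8 genes had a called difference between the cord and the SVZ change, against 41.1% of all probe sets, namely Hhip at 2.28 ± 0.22 (adjusted p = 8.64e-09, with SVZ arrays under the limit at both stages), Sufu at 2.03 ± 0.2 (adjusted p = 2.11e-08) and Ptch1 at 1.5 ± 0.21 (adjusted p = 4.15e-06). In naive cultures 1 was called, against 8.48%, and it was Sufu at 1.36 ± 0.38 (adjusted p = 0.0316), which was lost without replicate 1 (adjusted p = 0.265) or replicate 2 (adjusted p = 0.333). The naive difference for Hhip was 1.99 ± 0.89 (adjusted p = 0.184) and for Ptch1 1.56 ± 0.78 (adjusted p = 0.235). Without the 5 least correlated arrays these were 3.14 (adjusted p = 4.01e-05) and 2.38 (adjusted p = 4.9e-05).

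The third comparison, between EAE and naive donors, was the one named in the design text. None of the 8 genes was called in undifferentiated SVZ, cervical or thoracic cultures, where 0% of all probe sets were, nor in differentiated SVZ and thoracic cultures (0% of all), differentiated cervical cultures (0.133%), differentiated caudal cultures (0.89%) or biopsies (0.0151%). An unadjusted p under 0.05 was found 5 times among these: for Sufu in undifferentiated SVZ cultures (0.36 ± 0.1, limma adjusted p = 0.378), for Shh and Smo in undifferentiated cervical cultures (-0.51 ± 0.18, adjusted p = 0.424, and -0.7 ± 0.23, adjusted p = 0.412), for Smo in undifferentiated thoracic cultures (-1.42 ± 0.28, adjusted p = 0.517) and for Smo in differentiated SVZ cultures (0.47 ± 0.17, adjusted p = 0.234). Some such values arise over this many tests without any effect. Their share over all probe sets is not given here, so these 5 are a description. In undifferentiated thoracic cultures, leaving out naive replicate 2 alone gave calls for Ptch1 (1.08, adjusted p = 0.0251) and Hhip (1.07, adjusted p = 0.0371), both higher in EAE. That fit called 2085 probe sets in all, against 0 with all arrays. Its naive side was replicates 1 and 3, with Gli3 signals of 146 and 168, against 39.2 in replicate 2. In differentiated SVZ cultures, leaving out naive replicate 3 alone gave a call for Ptch1 (0.47, adjusted p = 0.0302). There 1177 probe sets were called in all, against 0 with all arrays.

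Undifferentiated caudal cultures were the one region with calls. There, 3 of the 8 genes were lower in EAE, against 17.2% of all probe sets called and 13.9% called lower. Hhip signals were 81.5, 135 and 113 in EAE and 246, 246 and 185 in naive arrays, a difference of -0.95 ± 0.19 (adjusted p = 0.00633). Sufu signals were 176, 324 and 221 in EAE and 588, 508 and 500.5 in naive arrays, a difference of -1.13 ± 0.2 (adjusted p = 0.00361). Shh signals were 40.2, 46.1 and 47.1 in EAE and 70.4, 74.5 and 73.2 in naive arrays, a difference of -0.55 ± 0.13 (adjusted p = 0.0166). The EAE and naive arrays did not overlap for any of the 3 genes. With 3 arrays a side this adds little to a call, and its share over all probe sets was not counted. All 3 EAE values of Shh were under the limit of 50. Shh could be tested only through the naive arrays, and the size of its difference is uncertain. Ptch1 gave 499, 694 and 627 in EAE and 855, 1053 and 705 in naive arrays, also without overlap, but its difference of -0.5 ± 0.18 was not called (adjusted p = 0.0807). The Hhip call was lost when all 18 groups shared 1 fit (adjusted p = 0.276). With the methods' t-test, Hhip (adjusted p = 0.1) and Sufu (adjusted p = 0.0944) were not called. The Shh call was lost without EAE replicate 1 (adjusted p = 0.0629) or 3 (adjusted p = 0.0651), and with all groups in 1 fit (adjusted p = 0.0575). In the same comparison all 6 oligodendrocyte markers and all 10 fibroblast and pericyte markers were called lower and all 12 microglia and macrophage markers higher in EAE, with median differences of -0.75, -2.8 and 3.64, and their part in the changes of these 3 genes was not tested. Whether the caudal effect differs from that of other regions was not tested.

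Over the mean of the 3 cord regions in undifferentiated cultures, 3 of the 8 genes were lower in EAE, against 6.75% of all probe sets called and 5.06% called lower. They were Gli3 at -1.07 ± 0.28 (adjusted p = 0.0353), Smo at -0.58 ± 0.15 (adjusted p = 0.0384) and Shh at -0.34 ± 0.08 (adjusted p = 0.0267). Gli3 ran from 17.2 to 38.5 in EAE and 30 to 186 in naive cord arrays, so the EAE values were all below the limit. It passed 50 on 0 of 9 EAE and 4 of 9 naive arrays. Gli3 could thus be tested only through naive arrays, and its difference has no measured size. Without replicate 1 or replicate 3 of each group none of the 8 genes was called, Gli3 not being tested without replicate 3, and 72 and 90 probe sets in all were called, against 1282 with all arrays. The Shh call was also lost without replicate 2 (adjusted p = 0.0689) and, by its fold, with quantile normalization (-0.23), and the Smo call with scaling to the 75th percentile (adjusted p = 0.0602) and with all 18 groups in 1 fit (adjusted p = 0.0571). Smo by itself did not move 1 way in every region, with a difference of 0.37 ± 0.21 in caudal cultures (adjusted p = 0.251). All 12 microglia and macrophage markers were higher in EAE cord cultures, with scores of 7.4 to 9.18 in the 9 EAE and 4.72 to 5.68 in the 9 naive arrays, and the fibroblast and pericyte scores were 5.42 to 9.69 and 5.47 to 11.9. Their part in these results was not tested. In differentiated cord cultures none of the 8 genes was called, against 2.49% of all probe sets. The difference of the EAE effect between cord and SVZ was called for none of them, against 0.233% in undifferentiated and 0.876% in differentiated cultures. In undifferentiated cultures its unadjusted p was under 0.05 for Shh, Smo and Gli3, whose differences were -0.41 ± 0.16, -0.79 ± 0.28 and -1.19 ± 0.49 (limma adjusted p = 0.482, 0.443 and 0.5). These are listed as a description. Without the 5 least correlated arrays, Gli3 was called in the difference of EAE effects (-1.16, adjusted p = 0.00482). Its EAE cord arrays are the same ones under the limit. In that setting 667 probe sets in all were called, against 45 with all arrays.

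**Figure D5:**
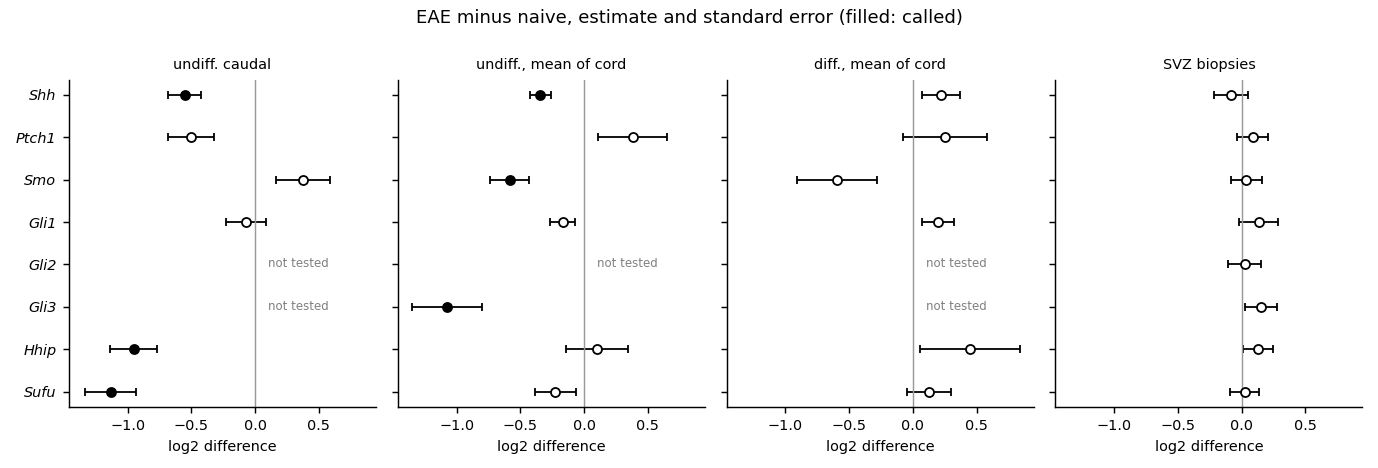
Difference between EAE and naive arrays on the log2(signal + 16) scale, with its standard error, in undifferentiated caudal cultures, over the mean of the 3 cord regions at each stage, and in SVZ biopsies. Filled points passed the call rule. Shh, Hhip and Sufu were lower in undifferentiated caudal EAE cultures, and in the biopsies the differences ran from -0.08 to 0.15.

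The biopsies show the same genes in tissue, where many more cell types are present. In naive rats 7 of the 8 genes were called between SVZ biopsies and undifferentiated SVZ cultures, against 76.9% of all probe sets, and in EAE rats 6, against 79.7%. Hhip signals were 159, 156 and 134 in naive and 167, 173 and 153 in EAE biopsies, higher than in culture by 1.5 ± 0.14 (adjusted p = 5.87e-07) and 1.95 ± 0.1 (adjusted p = 1.42e-09). Gli1 was higher by 0.7 ± 0.16 (adjusted p = 0.00119) and 1.13 ± 0.13 (adjusted p = 3.47e-06). Ptch1 signals were 374, 438 and 371 in naive and 376, 424 and 461 in EAE biopsies, higher by 0.3 ± 0.11 (adjusted p = 0.0194) and 0.31 ± 0.11 (adjusted p = 0.0218). The Ptch1 difference was the smallest of the 3 and was not called when all 18 groups shared 1 fit (adjusted p = 0.599 and 0.582). The EAE call was also lost with the methods' t-test (adjusted p = 0.0601) and on leaving out any of 3 single arrays (adjusted p = 0.0565 to 0.0955), and the naive call on leaving out either of 2 (adjusted p = 0.0601 and 0.0635). The naive Gli1 call was lost with quantile normalization (0.33, adjusted p = 0.0604). Shh was higher in naive biopsies by 0.53 ± 0.13 (adjusted p = 0.0024). All undifferentiated SVZ culture arrays were under the signal limit for Hhip and Gli1 in EAE and for Shh in naive rats. There these genes could be tested only through the biopsies, so the sizes of 1.95, 1.13 and 0.53 are uncertain. In naive cultures Hhip and Gli1 each passed the limit on 1 of 3 arrays, so their sizes are uncertain too.

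Smo, Gli3 and Sufu were lower in tissue than in SVZ culture. Smo signals were 131, 166 and 142 in naive and 136, 155 and 159 in EAE biopsies, with log2 differences of -1.73 ± 0.11 (adjusted p = 1.02e-08) and -1.9 ± 0.11 (adjusted p = 4.83e-09). Gli3 signals were 113, 138 and 109 in naive and 124, 124 and 158 in EAE biopsies, with differences of -1.18 ± 0.12 (adjusted p = 1.44e-06) and -1.15 ± 0.11 (adjusted p = 9.09e-07). Sufu signals were 106, 113 and 98.9 in naive and 101, 112 and 109.9 in EAE biopsies, with differences of -1.94 ± 0.1 (adjusted p = 1.24e-09) and -2.28 ± 0.11 (adjusted p = 8.99e-10). The biopsy signals of Smo and Gli3 lay below all 12 SVZ culture arrays. They lay within the range of the 36 cord arrays but far above the cord medians. The median of Smo was 148 in biopsies and 49.3 in cord cultures, and that of Gli3 was 124 and 29.7. The neuron score (7 genes) was 11.1 to 11.3 in biopsies and 5.43 to 5.78 in undifferentiated SVZ cultures, and all 7 neuron markers and all 6 oligodendrocyte markers were higher in tissue. The part of cell type in these differences was not tested.

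Other genes of the pathway were followed by role. Of 7 genes for ligands and their release, Dhh, which encodes Desert hedgehog, stood out. Its signal was 664 to 1055 in the 6 undifferentiated SVZ arrays, 51.8 to 118 in the differentiated SVZ arrays and 29.3 to 118 over the 36 cord arrays. In undifferentiated cultures Dhh was lower in cord by log2 differences of -3.42 ± 0.19 in naive (adjusted p = 1.76e-06) and -3.96 ± 0.12 in EAE cultures (adjusted p = 1.65e-12). It fell with differentiation in SVZ cultures by 3.09 in naive (adjusted p = 0.000135) and by 3.73 in EAE arrays (adjusted p = 2.83e-08), and the change in cord minus that in SVZ was 2.91 in naive (adjusted p = 1.22e-06) and 3.9 in EAE cultures (adjusted p = 4.26e-15). In the biopsies it was 49.4 to 66.9, lower than in undifferentiated SVZ culture, at -3.51 ± 0.13 (adjusted p = 3.52e-11) in naive and -3.67 ± 0.11 (adjusted p = 1.18e-11) in EAE arrays.

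The receptors and co-receptors hold 6 genes, of which 5 had a probe set. Cdon, a co-receptor that binds Hedgehog ligands, ran from 969 to 1375 in undifferentiated SVZ cultures and from 72.8 to 508 in undifferentiated cord cultures, with log2 differences of -2.66 ± 0.48 in naive (adjusted p = 0.00333) and -3.69 ± 0.09 in EAE cultures (adjusted p = 1.38e-13). In EAE differentiated cultures it was -2.34 ± 0.14 (adjusted p = 1.89e-09). Cdon fell with differentiation in SVZ cultures, by 1.61 in naive (adjusted p = 0.0295) and by 1.42 in EAE arrays (adjusted p = 6.2e-05), and it was lower in biopsies, at -2.53 and -2.77.
Boc, a related co-receptor, was lower in cord in EAE cultures, at -0.85 ± 0.17 undifferentiated (adjusted p = 0.00071) and -1.21 ± 0.27 differentiated (adjusted p = 0.00109). In naive cultures the differences were 1.05 ± 1.51 undifferentiated (adjusted p = 0.649) and -0.39 ± 0.82 differentiated (adjusted p = 0.803), and Boc ranged from 14.7 to 3914 over the 18 undifferentiated cord arrays, naive and EAE together. It was lower in EAE than in naive undifferentiated caudal cultures, at -1.2 ± 0.28 (adjusted p = 0.0149). It rose with differentiation in SVZ cultures by 0.48 and 0.86 and in EAE cord cultures by 0.5.
Lrp2, an endocytic receptor that takes up Shh in the forebrain, was 34.5 to 57.8 in undifferentiated and 193 to 1915 in differentiated SVZ cultures, and 10.9 to 56.7 in cord cultures. No differentiated cord array reached the limit of 50. It rose with differentiation in SVZ by 3.25 ± 0.62 in naive (adjusted p = 0.00641) and 4.63 ± 0.17 in EAE cultures (adjusted p = 1.59e-07). Gpc3, a glypican that competes for ligand, was higher in biopsies by 1.08 and 1.27. It passed the limit on too few undifferentiated SVZ culture arrays to be tested among them, so these sizes are uncertain.

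Of the 24 genes that act between Smo and Gli, mostly kinases, adaptors and cilium components, 21 had a probe set, and between cord and SVZ cultures many were lower. In naive undifferentiated cultures 11 were called lower and none higher of 21 tested, with a median difference of -0.42 against 0.03 over all probe sets tested. In EAE undifferentiated cultures 14 were lower and 2 higher of 21 (median -0.5 against -0.06), in naive differentiated cultures 9 lower and none higher of 21 (median -0.34 against -0.06), and in EAE differentiated cultures 16 lower and 1 higher of 20 (median -0.63 against -0.21). Of all probe sets tested, 10.6%, 29.2%, 16% and 43.9% were called lower in these 4 comparisons. Evc2 and Evc, whose products form a complex that holds active Smo signalling in the cilium, were singled out after their values were seen. Evc2 was lower in cord, at -2.2 ± 0.31 in naive (adjusted p = 0.000836) and -2.87 ± 0.13 in EAE undifferentiated cultures (adjusted p = 1.52e-10), and Evc at -1.24 ± 0.11 (adjusted p = 4.46e-05) and -1.9 ± 0.11 (adjusted p = 1.57e-09). Over the mean of cord regions, Evc was lower in EAE than in naive undifferentiated cultures, at -0.42 ± 0.08 (adjusted p = 0.0103). With differentiation of SVZ cultures, Kif3a, a subunit of the motor that builds cilia, rose by 0.98 in naive (adjusted p = 0.00195) and 1.14 in EAE cultures (adjusted p = 1.61e-05). The EAE effect of Dync2h1, which encodes the motor for return transport in cilia, was lower in differentiated cord than SVZ cultures, at -0.73 ± 0.16 (adjusted p = 0.0354).

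Of 15 genes known as Gli targets in some tissues, 13 had a probe set, and they did not move 1 way. Between cord and SVZ, 0 of 13 tested were called higher and 2 lower in naive undifferentiated cultures (22.9% of all probe sets called), 2 of 12 higher and 5 lower in EAE undifferentiated (47.7%), 0 of 13 higher and 1 lower in naive differentiated (22.5%), and 3 of 13 higher and 5 lower in EAE differentiated cultures (61.3%). Ccnd2, a cyclin of the G1 phase, was lower in cord, at -2.76 (adjusted p = 0.0188) in naive undifferentiated, -3.46 (adjusted p = 2.37e-05) in EAE undifferentiated and -2.92 (adjusted p = 1.79e-06) in EAE differentiated cultures. Nkx2-2, a ventral patterning factor also expressed in oligodendrocyte precursors, was higher in cord in EAE undifferentiated cultures by 2.22 ± 0.13 (adjusted p = 3.26e-09), and Mycn by 0.9 ± 0.14 (adjusted p = 0.000101). With differentiation of cord cultures Nkx2-2 fell, with changes of -2.17 in naive (adjusted p = 0.00267) and -3.47 in EAE cultures (adjusted p = 9.62e-15), the opposite direction to Hhip. Ccnd1, another G1 cyclin, was higher in EAE differentiated cord than SVZ cultures by 0.79 (adjusted p = 0.000492) and lower in biopsies than in culture, at -4.71 and -4.86. Foxm1, a factor of dividing cells, fell with differentiation in cord by 1.19 in naive (adjusted p = 0.0173) and 1.95 in EAE cultures (adjusted p = 1.62e-08), where 2 and 4 of 4 proliferation markers fell. Bcl2, a survival gene that Gli proteins can induce, was lower in cord in naive differentiated cultures, at -1.53 ± 0.23 (adjusted p = 0.000856). Osr2 fell in SVZ cultures with differentiation, by 2.84 in naive arrays (adjusted p = 1.29e-05), as did Ccnd1, by 2.1 in EAE arrays (adjusted p = 3.98e-06). In undifferentiated caudal cultures Ccnd2 was lower in EAE, at -1.31 ± 0.31 (adjusted p = 0.0149). Mycn was higher in biopsies than in culture by 1.44 and 1.67.

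The patterns of the 8 genes can be compared over the 16 culture group means, as a description, since the groups share regions, culture stages and normalization with each other. Smo and Gli3 had a Pearson correlation of 0.981, Ptch1 and Hhip of 0.832, Ptch1 and Smo of -0.905, and Sufu and Hhip of 0.07. Among all probe sets with 1 symbol that passed 50 on at least 3 culture arrays, Hhip was close to Adap1 (0.994) and Rbm44 (0.993). Ptch1 was most like Wscd1 (0.99), Unc5b (0.984) and Myo9b (0.979). Smo was most like Spats2l (0.985), L3mbtl3 (0.984) and Gli3, and Gli3 like Asph (0.991), Etfbkmt (0.986) and Kitlg (0.983). Sufu was most like Dot1l (0.964), Dock1 (0.956) and Wdfy3 (0.932). For Shh the genes were Arhgap40 (0.963), Gphb5 (0.961) and Dcst1 (0.945), and for Gli1 Or2ak5e (0.971), Slc26a9 (0.959) and Col7a1 (0.952), both genes with small differences near the limit. In the order of group means, neighbours overlapped at all steps for Hhip and Gli1. For Sufu the neighbours overlapped except at the 2 steps below undifferentiated caudal naive and undifferentiated SVZ naive cultures, and for Ptch1 except at the 2 steps into undifferentiated and into differentiated SVZ cultures. For Gli3 the steps without overlap were below differentiated SVZ naive and undifferentiated caudal naive cultures, and for Smo below differentiated SVZ EAE and differentiated cervical EAE cultures.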

How the data were processed

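Total RNA was measured on 54 Affymetrix arrays in 18 groups of 3. Per the file headers, the deposited intensity values are linear PLIER signals with PM-GCBG background correction and global median normalization. The submitters' processing notes name Affymetrix Expression Console. Its version, the array type and the genome build are not given in the sources used. The deposited table also holds a p-value of an unpaired t-test and a ratio of group means per comparison, which are the authors' own, per the file headers, and were not used for any result. Signals were compared as log2(signal + 16) with limma 3.58.1 in R 4.3.3, fitting the groups of each comparison, and tested on simulated data. Probe sets above 50 on at least 3 arrays were tested, with Benjamini-Hochberg adjustment over all of them. The limits of 0.05 and 1.2-fold, and of 50, follow the design text. The number of arrays limits the precision. Alternatives changed the pseudocount, filter, scaling, groups fitted, test, replicate block and arrays. Replicate numbers did not pair samples in any comparison. Gene names are those of the deposited table. The 8 genes, gene lists and markers were chosen with earlier results of these data known. Named genes are the 8 genes, called receptors and co-receptors, called pathway genes with the largest changes, and the 3 genes most like each of the 8, and a few results under this rule are not reported here.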

Additional observations from a re-analysis of the deposited data

Results flagged for a closer look

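The change with differentiation differed between cord and SVZ cultures in 4 tests of the difference itself (limma, Benjamini-Hochberg over all probe sets tested). In EAE cultures the cord change exceeded the SVZ change by 2.28 for Hhip, by 2.03 for Sufu and by 1.5 for Ptch1 on the log2(signal + 16) scale. These were 3 of the 8 genes, against 41.1% of all probe sets called. In naive cultures the cord change exceeded the SVZ change by 1.36 for Sufu, 1 of the 8 genes, against 8.48% of all. The naive Sufu call was lost without replicate 1 (adjusted p = 0.265) or replicate 2 (adjusted p = 0.333). The parts of these differences were not alike. For Hhip, cord cultures rose and SVZ cultures stayed under the signal limit in EAE, so that the SVZ change has no measured size. For Sufu, SVZ cultures fell and the cord change was 0.05 in EAE and -0.29 in naive cultures, neither of them called. For Ptch1 in EAE cultures, cord rose by 0.36 and SVZ fell by 1.15.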

How the results depend on the processing

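Over 25 comparisons, no log2 difference of the 8 genes that was called reversed under any alternative: 478 called values stayed called and 68 did not, and 1122 values not called stayed so and 32 gained a call. Of the 8 genes, the number called in naive SVZ differentiation was 2, and 1 with log2(signal + 1), no signal filter, quantile normalization, 75th percentile scaling, all groups in 1 fit and the methods' t-test. With all groups in 1 fit it was 1 in place of 3 for EAE in undifferentiated caudal cultures (also 1 with the methods' t-test), 3 in place of 1 for naive cord differentiation, 4 in place of 1 for its difference from SVZ, and 1 in place of 2 for EAE SVZ differentiation. For EAE cord differentiation it was 5 in place of 3 with quantile normalization and with 75th percentile scaling, and the calls of all probe sets went from 3040 higher and 7137 lower to 6057 and 4748, and to 9172 and 4047. Without the least correlated array of each of 5 groups, a setting added after seeing the data, it was 2 in place of 0 for EAE in undifferentiated thoracic cultures, 1 in place of 0 in differentiated SVZ cultures (also 1 without all arrays under a correlation of 0.96), 1 in place of 0 for the difference of EAE effects in undifferentiated cultures, 3 in place of 1 for naive cord differentiation and 3 in place of 1 for its difference from SVZ. In the same order, calls of all probe sets went from 0 to 2085, 0 to 1177, 45 to 667, 5155 to 7952 and 1661 to 5527. The setting with 0.96 left some groups empty and could be run for few comparisons.

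Leaving out arrays or replicate numbers gave 0 to 2 calls for EAE in undifferentiated thoracic, 2 to 3 in undifferentiated caudal and 0 to 1 in differentiated SVZ cultures, and 0 to 2 over the mean of undifferentiated cord cultures. Between cord and SVZ it gave 1 to 5 in naive undifferentiated, 4 in EAE undifferentiated, 0 to 5 in naive differentiated and 4 to 5 in EAE differentiated cultures. For differentiation it gave 1 to 2 in naive SVZ, 0 to 1 in naive cord and 0 to 2 for their difference, and 2, 2 to 3 and 3 in EAE. Biopsies gave 5 to 7 in naive and 3 to 6 in EAE rats. The calls of all probe sets changed as well, in naive differentiated cord against SVZ from 4162 to 751 and 780 without replicates 1 and 2. The cause of these changes was not tested. Replicate numbers did not pair the samples. With the replicate block 50 called values stayed called, 100 not called stayed so and 2 lost their call, Shh in undifferentiated caudal cultures (adjusted p = 0.0503) and Sufu between naive differentiated cord and SVZ cultures (adjusted p = 0.0606). Signals of Shh, Gli1 and Gli2 lie close to the background medians, which limits what their differences can show.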
